A study of Mus musculus with 9 samples.

Results

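The expression of 10 chemokine genes was followed in mouse liver: Cxcl1, Cxcl9, Cxcl10, Cxcl12, Cxcl13, Ccl2, Ccl5, Ccl6, Ccl9 and Ccl24. They were taken by gene symbol, each matched exactly 1 feature, and they are 10 of the 55414 features with Ensembl identifiers in the table. RNA came from livers of NSG mice, a strain without mature T, B and NK cells, labelled as wild type in genotype. Injections into the tail vein ran for 5 weeks and carried phosphate-buffered saline (PBS), or extracellular vesicles (EVs) from cultures of 1 of 2 human breast cell lines: MCF-10A, which is epithelial and does not form tumours, and MDA-MB-231, which comes from a triple-negative cancer. Each of these 3 groups holds 3 libraries, 9 in all. Age, sex and vesicle dose are not given in the sources used here, and nothing says that the 3 libraries of a group came from separate mice, so a p-value refers to the spread between libraries, which may be technical. Values are TPM (transcripts out of 1000000 in a library), a level already scaled by transcript length and library total, and read depth is unknown.

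Chemokines are small secreted proteins that bind to glycosaminoglycans on cell surfaces and draw leukocytes along their gradient through G protein-coupled receptors. CXC and CC chemokines differ in whether a residue stands between the first pair of conserved cysteines. In liver, hepatocytes, Kupffer cells (the resident macrophages), sinusoidal endothelium and stellate cells all make chemokines, at rest or under inflammatory signals such as interferon-gamma, TNF and interleukin 1.

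Features of a whole group and of single libraries touch what follows. All 6059 loci assembled from the reads are at 0 in every MCF-10A EV library, and were left out. TPM in these libraries sum to between 934986 and 979351, rather than to 1000000 as in the others. Any difference in processing behind this cannot be told apart from an effect of MCF-10A EVs in comparisons with that group. The library MCF-10A EV 1 stood apart in leukocyte and blood cell genes: 9 of 10 neutrophil markers were highest there, with a summed level of 5436 TPM against 20.7 to 221 TPM in the other 8 libraries, and the 4 erythroid markers summed to 15880 TPM against 772 to 4115 TPM. In the same library 7 of 10 Kupffer cell markers were highest (summed 2135 TPM against 314 to 866 TPM), among them the scavenger receptor gene Marco at 804 TPM, while the Kupffer cell lectin gene Clec4f was at 0.61 TPM against at least 96.5 TPM elsewhere. Folr2, another Kupffer cell marker, was also lowest in MCF-10A EV 1, at 4.4 TPM. Ly6g, the neutrophil marker that was not highest there, was at 13.4 TPM, against 23.4 TPM in MDA-MB-231 EV 3. In bulk tissue, more cells of a type and more RNA per cell cannot be told apart. PBS 1 had 26.3% of its TPM in mitochondrially encoded genes, against 4.96% to 12.1% in the other libraries, and was the lowest library for 5 of the 10 chemokines and for 22.02% of all genes tested; the part of this share in the results was not tested. MDA-MB-231 EV 3 was the highest library for 27.26% of all genes tested, the largest share, and MDA-MB-231 EV 1 for 26.9%. The assembled loci held 5.70% of TPM in MDA-MB-231 EV 3, against 1.21% to 3.02% in the other libraries of its group and of PBS. Over all genes, the deviations of PBS 1 and MDA-MB-231 EV 3 from their group means had r = 0.625, the largest between groups. Fits without MDA-MB-231 EV 3 are given below. Hepatocyte markers marked every library as liver, with Alb, the serum albumin gene, between 13110 and 65810 TPM. The T and NK cell markers summed to at most 10.2 TPM.

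No chemokine of the 10 passed the test in any comparison, and in most of them the spread within a group was larger than the distance between groups. MCF-10A EV 1 held the highest level of 8 of the 10, all but Cxcl12 and Ccl24; it was the highest library for 18.61% of all 12860 genes tested. Summed over the 10 genes, TPM was 725 in that library, 97.5 and 139 in the other MCF-10A EV libraries, 76.5 to 147 after PBS and 120 to 359 after MDA-MB-231 EVs. The order of the mean levels over all libraries was Cxcl12 (81.8 TPM), Cxcl13 (51.3), Ccl9 (34.9), Cxcl1 (28.3), Ccl6 (11.1), Cxcl10 (3.66), Cxcl9 (3.62), Ccl5 (3.25), Ccl2 (2.38) and Ccl24 (1.42 TPM). Without MCF-10A EV 1 the mean of Cxcl13 was 12.1 TPM, below those of Ccl9 (26.3) and Cxcl1 (20.5 TPM), and that of Cxcl10, 1.77 TPM, lay below that of Cxcl9, 2.98 TPM; Ccl2, at 0.861 TPM, was then lower than Ccl24, at 1.59 TPM. The ranges of neighbours in this order overlapped across libraries in each case.

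**Figure D1:**
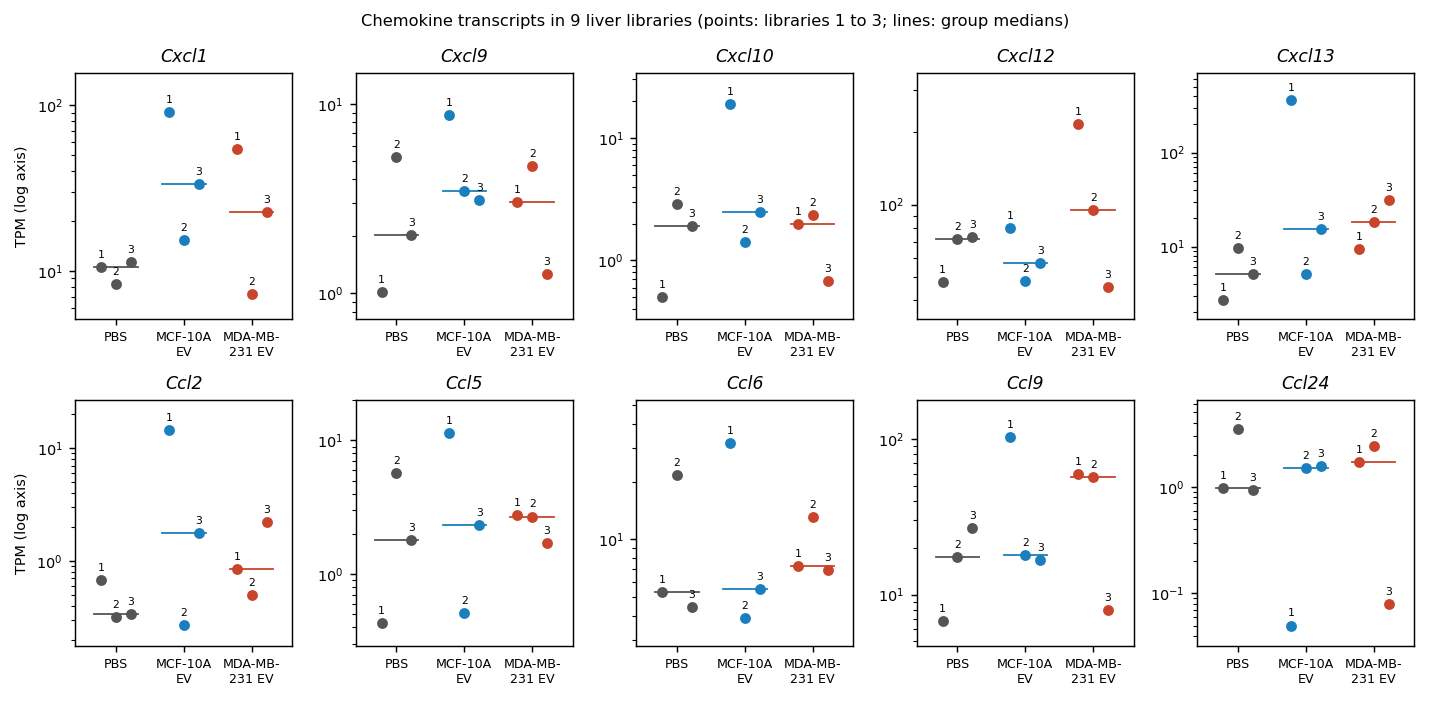
TPM (log axis) of each chemokine in the 9 libraries, with points numbered by library and a line at each group's median. The first MCF-10A EV library is the highest point in 8 of the 10 panels; Cxcl12 peaks in the first MDA-MB-231 EV library and Ccl24 in the second PBS library.

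Cxcl1 (ENSMUSG00000029380), on chromosome 5 beside Cxcl2, encodes a neutrophil attractant that signals through Cxcr2 and is a classical target of NF-kB. It was the 1 member whose libraries did not overlap between 2 groups (MCF-10A EV above PBS, as in 2.95% of all genes tested). It stood at 10.5, 8.33 and 11.4 TPM after PBS, at 91.4, 15.4 and 33.6 TPM after MCF-10A EVs and at 54.7, 7.30 and 22.5 TPM after MDA-MB-231 EVs. All MCF-10A EV libraries lay above all PBS libraries, while MDA-MB-231 EV 2 was the lowest of the 9. The log2 change of MCF-10A EV versus PBS was 1.77 ± 0.74 (SE; 95% interval 0.13 to 3.41), with an unadjusted limma p of 0.0371 and an adjusted p of 1. Without MCF-10A EV 1 the change was 1.12 ± 0.73. Between MDA-MB-231 EV and PBS it was 1.01 ± 0.74, with 0.35 without MDA-MB-231 EV 1 and 1.72 without MDA-MB-231 EV 2.

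The promoter of Cxcl1 is shown because it holds the NF-kB pattern searched in all promoters. The 250 bases before its start of transcription lie at chr5:90890995-90891244 (GRCm38.p6, RefSeq, plus strand). Capitals mark the match to NF-kB, 71 bases before the start. The last capital belongs to an overlapping match of the looser form given below, on the other strand, beginning 70 bases before the start.
Cxcl1 promoter: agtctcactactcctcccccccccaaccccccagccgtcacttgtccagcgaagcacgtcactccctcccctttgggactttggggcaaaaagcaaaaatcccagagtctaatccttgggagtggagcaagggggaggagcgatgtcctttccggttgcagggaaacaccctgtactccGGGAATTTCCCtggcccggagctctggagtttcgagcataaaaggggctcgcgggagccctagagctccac
The pattern GGGA, any base, then TTTCC, on either strand, was found in 0.411% of 32851 RefSeq promoter windows of 300 bases (250 before to 50 after a start). A looser form, GGGA, any 2 bases, then TTCC, overlaps it and was found in 1.47%. Promoters were found in the RefSeq table for 7 of the 10 members, all but Ccl2, Ccl5 and Ccl24. Matches are letters, not shown binding sites.

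Around Cxcl1, the receptor gene Cxcr2 was at 9.48 TPM in MCF-10A EV 1 and at most at 0.63 TPM elsewhere, so its mean passed the filter through that library alone. Cxcl2, the neighbouring neutrophil attractant, was at 4.93 TPM in MCF-10A EV 1 and between 0 and 0.89 TPM in the others. The neutrophil alarmin gene S100a9 was at 2692 TPM in MCF-10A EV 1, 106 TPM in MDA-MB-231 EV 3 and 88.5 TPM in MCF-10A EV 3, against 8.46 to 49.5 TPM in the other 6. MDA-MB-231 EV 1 held the second highest Cxcl1 with an S100a9 level of 18.2 TPM. The part of neutrophils in the Cxcl1 values was not tested.

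Cxcl9 and Cxcl10 encode ligands of Cxcr3, the receptor of activated T and NK cells, and are induced by interferon-gamma; both lie on chromosome 5, with only Art3 between them among protein-coding genes. Cxcl9 (ENSMUSG00000029417) was at 1.02, 5.22 and 2.02 TPM after PBS, 8.72, 3.48 and 3.10 TPM after MCF-10A EVs and 3.02, 4.71 and 1.26 TPM after MDA-MB-231 EVs. Cxcl10 (ENSMUSG00000034855) was at 0.50, 2.87 and 1.90 TPM, at 18.8, 1.42 and 2.50 TPM and at 1.97, 2.34 and 0.68 TPM in the same order. For both genes MCF-10A EV 1 was highest, PBS 2 was the highest of the PBS libraries, and PBS 1 and MDA-MB-231 EV 3 were the lowest libraries. The groups overlapped in every comparison.

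Between MDA-MB-231 EVs and PBS the changes were small beside their errors, 0.15 ± 0.56 for Cxcl9 (95% interval -1.08 to 1.38) and -0.01 ± 0.74 for Cxcl10 (-1.64 to 1.63; limma adjusted p = 1 for both). Between MCF-10A EV and PBS, the log2 change of Cxcl10 was 1.10 ± 0.74 with all libraries, 0.18 ± 0.55 without MCF-10A EV 1 and 1.70 if MCF-10A EV 2 was left out instead, and that of Cxcl9 was 0.74 ± 0.56 with all libraries and 0.35 ± 0.58 without MCF-10A EV 1. The receptor gene Cxcr3 was at most at 0.25 TPM in any library. Cxcl11, the third ligand of Cxcr3, had another order, with its highest levels in PBS 1 (16.3 TPM) and MDA-MB-231 EV 3 (8.05 TPM), the libraries with the lowest Cxcl9 and Cxcl10, and at most 2.66 TPM elsewhere.

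The promoter of Cxcl10 carries both an interferon and an NF-kB pattern and is shown for that reason. Its 250 bases before the start lie at chr5:92348890-92349139 (GRCm38.p6, RefSeq, minus strand). The first run of capitals, 213 bases before the start, matches the interferon-stimulated response element searched as GAAA, any 2 bases, then GAAA, which was found in 3.44% of promoter windows. The other, 159 bases before the start, matches the looser NF-kB pattern.
Cxcl10 promoter: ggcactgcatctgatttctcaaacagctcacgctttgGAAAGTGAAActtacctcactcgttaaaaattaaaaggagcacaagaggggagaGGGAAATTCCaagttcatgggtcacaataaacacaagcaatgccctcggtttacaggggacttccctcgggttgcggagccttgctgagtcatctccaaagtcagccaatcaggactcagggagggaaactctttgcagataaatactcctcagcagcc
The windows of Cxcl9, Cxcl12, Cxcl13, Ccl6 and Ccl9 hold none of the patterns searched. These included TTCNNNGAA, the GAS element, present in 8.3% of windows.

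Ccl5 (ENSMUSG00000035042), on chromosome 11, encodes RANTES, a ligand of Ccr1 and Ccr3 that T cells, macrophages and platelets release. It was at 0.43, 5.72 and 1.79 TPM after PBS, 11.3, 0.51 and 2.32 TPM after MCF-10A EVs and 2.77, 2.70 and 1.72 TPM after MDA-MB-231 EVs. The PBS and MCF-10A EV libraries differed among themselves 13.3-fold and 22.2-fold, and the MDA-MB-231 EV libraries, 1.61-fold apart, lay within both ranges. Changes were 0.17 ± 0.76 for MDA-MB-231 EV versus PBS and -0.23 ± 0.76 against MCF-10A EV. For MCF-10A EV versus PBS the change was 0.40 ± 0.76, and -0.42 ± 0.67 without MCF-10A EV 1.

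Cxcl12 (ENSMUSG00000061353), on chromosome 6, encodes SDF-1, a chemokine made by stromal and endothelial cells that holds Cxcr4-bearing cells in bone marrow and other tissues. It was the most abundant of the 10 on average and the 1 member with its peak in a cancer vesicle library. Levels were 47.6, 72.0 and 73.3 TPM after PBS, 80.0, 47.8 and 56.9 TPM after MCF-10A EVs and 218, 95.3 and 45.2 TPM after MDA-MB-231 EVs. MDA-MB-231 EV 1 and 2 were the highest libraries, but MDA-MB-231 EV 3 was the lowest of the 9. Over the 9 libraries Cxcl12 made up between 11.04% (MCF-10A EV 1) and 62.3% (PBS 1) of the summed level of the 10 genes.

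The log2 change of Cxcl12 was 0.63 ± 0.55 in MDA-MB-231 EV versus PBS (95% interval -0.58 to 1.84) and 0.70 ± 0.55 against MCF-10A EV (-0.52 to 1.91; limma adjusted p = 1 for both). The values were 0.06 and 0.12 if MDA-MB-231 EV 1 was left out, and were 1.18 and 1.25 if MDA-MB-231 EV 3 was. For MCF-10A EV versus PBS the change was -0.07 ± 0.55. In MDA-MB-231 EV 1 the 9 stellate cell and fibroblast markers summed to 326 TPM, against 63.6 to 176 TPM in the other libraries. Dcn (171 TPM), Reln, Colec11 and Lrat were highest there, with Reln at 45.8 TPM and at most 14.3 TPM elsewhere. Rgs5, Des, Pdgfrb, Col1a1 and Col3a1 were highest in other libraries. The hepatocyte markers also summed highest in MDA-MB-231 EV 1, at 109300 TPM, and in 26.9% of all genes tested this library was the highest. The sinusoidal endothelial markers summed highest in MDA-MB-231 EV 3, at 361 TPM, and to 293 TPM in MDA-MB-231 EV 1. The part of these cell types in the Cxcl12 level was not tested. Cxcr4, its receptor, was at 3.81 TPM in MCF-10A EV 1 and at most at 0.87 TPM elsewhere, and the scavenging receptor gene Ackr3 was at most at 0.83 TPM.

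For contrast with Cxcl1 and Cxcl10, the promoter of Cxcl12 is shown in lower case, since it holds no match. It lies at chr6:117168285-117168534 (GRCm38.p6, RefSeq, plus strand).
Cxcl12 promoter: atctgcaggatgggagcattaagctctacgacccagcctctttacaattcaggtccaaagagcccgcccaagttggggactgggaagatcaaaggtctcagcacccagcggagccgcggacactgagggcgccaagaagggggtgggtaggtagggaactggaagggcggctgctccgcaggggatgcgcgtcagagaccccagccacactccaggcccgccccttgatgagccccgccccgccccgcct
G and C make up 64.4% of these 250 bases, the highest share of the 7 promoters; it was 59.2% for Cxcl1, 48.0% for Cxcl10, 42.0% to 45.2% for the other 4, and 52.4% at the median of all promoters.

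Cxcl13 (ENSMUSG00000023078), also on chromosome 5, encodes the B cell attractant that signals through Cxcr5. It varied most between libraries of 1 group. PBS libraries held 2.72, 9.55 and 5.06 TPM, MCF-10A EV libraries 364, 5.15 and 15.3 TPM and MDA-MB-231 EV libraries 9.31, 18.3 and 31.5 TPM. MCF-10A EV 1 was 38.6-fold above the median of the other 8 libraries, a distance that 0.179% of all genes tested reached on the log2(TPM + 1) scale. All but 1 of the MDA-MB-231 EV libraries lay above all PBS libraries, and the exception, MDA-MB-231 EV 1, was just below PBS 2.

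The change of Cxcl13 in MDA-MB-231 EV versus PBS was 1.59 ± 1.21 (95% interval -1.10 to 4.28), and it lay between 1.19 and 2.01 whichever library was left out. Its error was 0.59 without MCF-10A EV 1, which enters this comparison through the shared estimate of spread, and the limma adjusted p was 1 with and without it. In MCF-10A EV versus PBS the change was 2.42 ± 1.21, and it was 0.69 ± 0.66 without MCF-10A EV 1, or 3.64 if MCF-10A EV 2 was left out instead. In MDA-MB-231 versus MCF-10A EVs it was -0.83 ± 1.21 and turned to 0.90 ± 0.66 without that library. Cxcr5 was at most at 0.04 TPM, and among B cell markers Cd79a and Ms4a1 were also at most at 0.04 TPM, while the immunoglobulin gene Ighm was between 5.93 and 41.0 TPM.

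The CC chemokines of monocytes and macrophages lie together on chromosome 11, where Ccl5, Ccl9 and Ccl6 follow each other without another protein-coding gene. Ccl2 (ENSMUSG00000035385), the attractant of Ccr2-bearing monocytes, was at 0.67, 0.32 and 0.34 TPM after PBS, 14.5, 0.27 and 1.76 TPM after MCF-10A EVs and 0.84, 0.50 and 2.19 TPM after MDA-MB-231 EVs. It passed the filter on low values through MCF-10A EV 1 alone, since its mean over the other 8 libraries was 0.861 TPM. The changes were 0.53 ± 0.79 for MDA-MB-231 EV versus PBS, -0.88 ± 0.79 against MCF-10A EV and 1.40 ± 0.79 for MCF-10A EV versus PBS. Ccr2 was at 4.44 TPM in MCF-10A EV 1 and at most at 0.69 TPM elsewhere. The 11 monocyte and dendritic cell markers summed to 49.0 TPM there against 8.63 to 18.8 TPM. Of these markers 6 were highest there, with Fcgr1 at 21.2 TPM and Itgam at 10.9 TPM. Ly6c2, Itgax, Flt3, Zbtb46 and Cd209a were highest in other libraries.

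Ccl6 (ENSMUSG00000018927) and Ccl9 (ENSMUSG00000019122) are rodent macrophage chemokines that act through Ccr1, and as near relatives they may share some reads. Ccl6 was at 5.31, 21.7 and 4.43 TPM after PBS, 31.9, 3.87 and 5.53 TPM after MCF-10A EVs and 7.29, 13.1 and 6.95 TPM after MDA-MB-231 EVs. In each group 1 library was above the other pair, and the groups overlapped. PBS 2, the second highest library of Ccl5 and Ccl6 and the highest of Ccl24, also held the most of 5 fat and mesothelium markers, 309.5 TPM summed against at most 7.60 TPM elsewhere, and their part in these values was not tested. Ccl9 was at 6.72, 17.5 and 26.8 TPM after PBS, 104, 18.1 and 16.8 TPM after MCF-10A EVs and 59.7, 56.8 and 7.96 TPM after MDA-MB-231 EVs. MDA-MB-231 EV 1 and 2 exceeded all PBS libraries in Ccl9, while MDA-MB-231 EV 3 lay near PBS 1 at the bottom.

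The change of Ccl9 in MDA-MB-231 EV versus PBS was 0.99 ± 0.90 (95% interval -0.99 to 2.98). It was 1.90 without MDA-MB-231 EV 3 and 0.48 without PBS 1. Against MCF-10A EV it was -0.06 ± 0.90, and 0.78 ± 0.87 without MCF-10A EV 1. For Ccl6 the log2 changes were 0.08 ± 0.76, -0.06 ± 0.76 and 0.14 ± 0.76 for cancer-line EVs versus PBS, for cancer-line versus MCF-10A EVs and for MCF-10A EVs versus PBS. The last of these was -0.71 ± 0.63 without MCF-10A EV 1. The summed Kupffer cell markers were 314, 692 and 351 TPM after PBS and 748, 866 and 576 TPM after MDA-MB-231 EVs, and their part in the values of Ccl6 and Ccl9 was not tested. Ccr1 was at 2.64 TPM in MCF-10A EV 1 and at most at 0.48 TPM elsewhere.

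Ccl24 (ENSMUSG00000004814), on chromosome 5, encodes eotaxin-2, which draws eosinophils through Ccr3. It was the lowest of the 10 on average and the only one with its minimum in MCF-10A EV 1. Its levels were 0.97, 3.51 and 0.93 TPM after PBS, 0.05, 1.51 and 1.56 TPM after MCF-10A EVs and 1.70, 2.43 and 0.08 TPM after MDA-MB-231 EVs. MCF-10A EV 1 and MDA-MB-231 EV 3 were low, the other 7 libraries held 0.93 TPM or more, and PBS 2 was highest. Changes were -0.26 ± 0.61 for MDA-MB-231 EV versus PBS, 0.19 ± 0.61 against MCF-10A EV and -0.45 ± 0.61 for MCF-10A EV versus PBS. The last was -0.03 without MCF-10A EV 1. Ccr3 was between 0.76 and 3.72 TPM, while the eosinophil granule gene Epx was listed at 0 in every library.

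**Figure D2:**
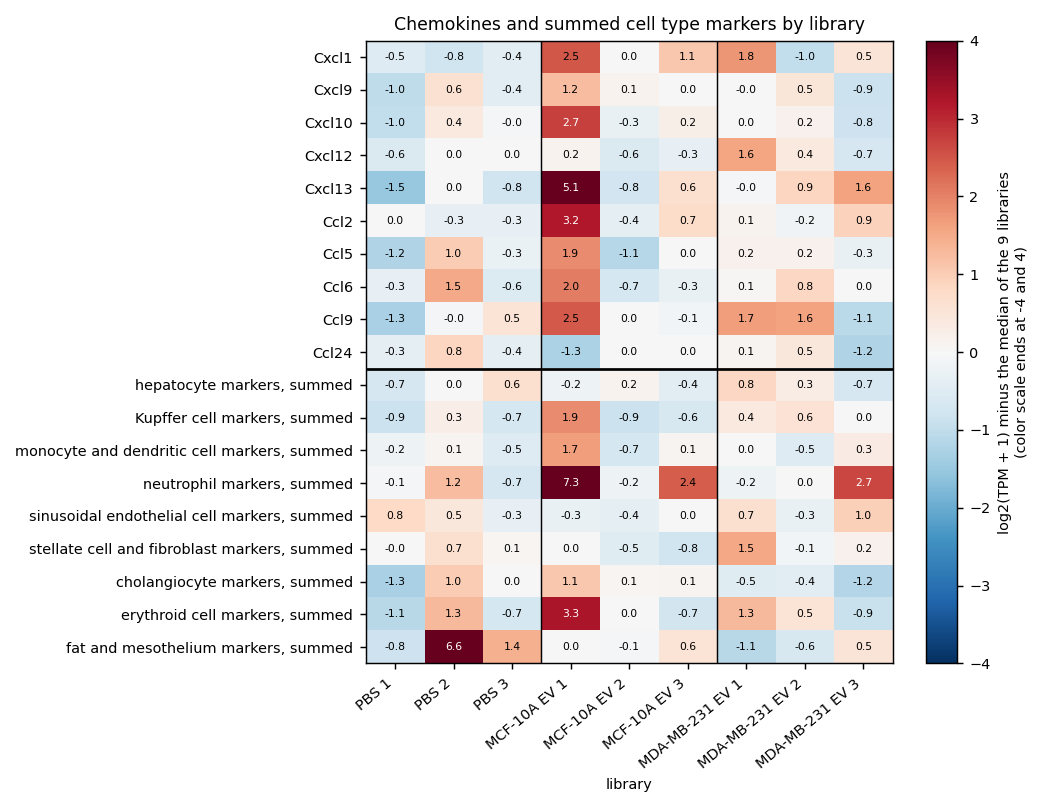
Level of each chemokine, and of 9 summed lists of cell type markers, in each library as log2(TPM + 1) minus the median of the 9 libraries. MCF-10A EV 1 is high for 8 chemokines and for the summed neutrophil, erythroid and Kupffer cell markers, though not for every marker in these sums. PBS 2 is high for the summed fat markers.

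The 3 comparisons are given here beside all genes tested, and each pair of them shares a group of libraries. In MDA-MB-231 EV versus PBS, 0 of the 10 members were called at a limma adjusted p under 0.05, as were 0 (0%) of 12860 genes tested, and 0 members and 199 genes had an unadjusted p under 0.05. No member separated these groups, where 5.23% of all genes were higher without overlap and 0.801% lower. The median change of the members was 0.35, with 8 above 0, beside a median of 0.21 over all genes, of which 69.72% were above 0. Cxcl13, Cxcl1 and Ccl9 had the largest changes, each within 2 standard errors of 0.

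In MDA-MB-231 versus MCF-10A EVs, 0 of 10 members were called, against 28 genes (0.218%), and 0 members had an unadjusted p under 0.05, as did 492 genes. None separated the groups, against 4.73% of genes higher and 1.8% lower. Here 2 members, Cxcl12 and Ccl24, were above 0 and the members' median was -0.41, beside 0.17 over all genes. Without MCF-10A EV 1, which removes Ccl2 from the genes tested, 5 of 9 members were above 0.

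In MCF-10A EV versus PBS, 0 of 10 members were called, against 25 genes (0.194%). Cxcl1 was the 1 member with an unadjusted p under 0.05, as were 411 genes, and the 1 member higher without overlap, where 2.95% of all genes were higher and 4.74% lower. Of the members 8 were above 0, with a median of 0.90 beside 0.07 over all genes. Without MCF-10A EV 1, 5 of 9 were above 0.

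**Figure D3:**
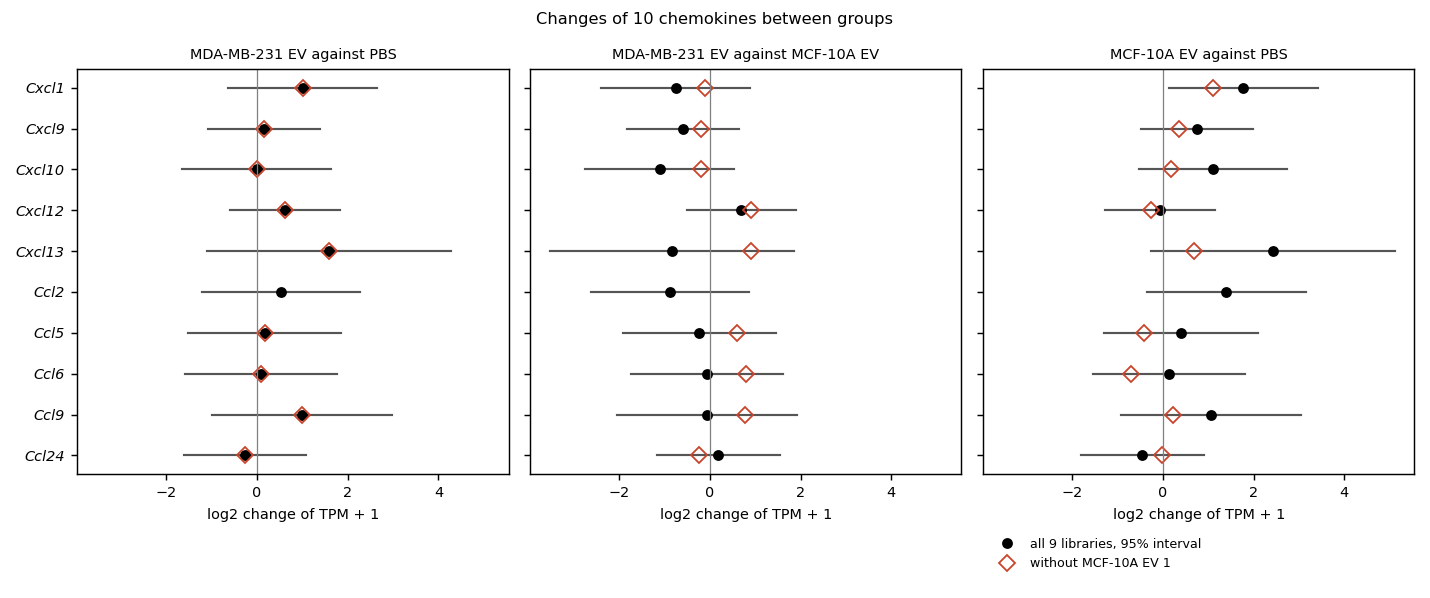
Log2 change of each chemokine (TPM + 1) in the 3 comparisons, with points and 95% intervals from the fit of all 9 libraries and open diamonds from the fit without MCF-10A EV 1; Ccl2 has no diamond because it falls under the filter there. Only the interval of Cxcl1 in MCF-10A EV versus PBS, 0.13 to 3.41, stays clear of 0, before adjustment over all genes.

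The rest of the family was sparse. Of 29 other chemokine genes 11 had a mean of at least 1 TPM, and none was called in any comparison. Of the 29, 15 were highest in MCF-10A EV 1, some near 0 such as Ccl20 (0.35 TPM), and 4 were at 0 in every library. Of the 11, Cxcl14, Cxcl16, Pf4, Ppbp, Ccl3 and Ccl4 were highest in MCF-10A EV 1, as were 18.61% of all genes tested. The platelet chemokine gene Pf4 was at 79.2 TPM there and between 1.61 and 8.14 TPM elsewhere, Ppbp at 40.7 against at most 2.79 TPM, and Cxcl14 at 121 against 3.49 to 22.6 TPM. Ccl19 was higher in all MCF-10A EV libraries (3.29, 3.06 and 8.74 TPM) than in all PBS libraries (0.88 to 1.07 TPM), a change of 1.47 ± 0.88 with a limma adjusted p of 1. Ccl21a was lower without overlap in MDA-MB-231 EV (0.34 to 0.51 TPM) than in PBS (0.54 to 8.04 TPM), a change of -1.32 ± 0.72 (adjusted p = 1). Without overlap, 2.95% of all genes tested were higher in the comparison of Ccl19 and 0.801% lower in that of Ccl21a. Ccl19 and Ccl21a, which guide cells to lymphoid tissue through Ccr7, have near-identical copies in the mouse genome, so their values are uncertain. Cxcl16 had a log2 change of 0.61 ± 0.53 in MDA-MB-231 EV versus PBS.

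Of 23 chemokine receptor genes 5 were tested, among them Cxcr2 and Ackr1, and none was called. Ackr1, a decoy receptor of endothelium, had the smallest p in MDA-MB-231 EV versus PBS, at 4.13, 4.41 and 3.14 TPM against 2.26, 3.80 and 2.09 TPM (0.42 ± 0.37, limma adjusted p = 1). Cxcr1, Cxcr6 and Ccr8 were listed at 0 in every library.

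Among 16 genes of interferon signalling, all tested, and 19 of the NF-kB pathway, all tested, none was called in any comparison. In MCF-10A EV versus PBS, 18 of the 19 NF-kB genes were above 0, with a median of 0.45, beside 56.73% of all genes. Of the 19, 15 were highest in MCF-10A EV 1, beside 18.61% of all genes. Summed over the 19 genes, TPM was 475 in that library, 139 and 199.5 in the other MCF-10A EV libraries and 167 to 204 after PBS. The count above 0 was not repeated without MCF-10A EV 1. Tnfaip3 and Tnf passed the filter through that library alone, with means of 0.649 and 0.318 TPM over the other 8, as did 5 genes of the other lists (Cxcr2, Ccrl2, Ccl4, Gbp2 and Mmp9), so counts and medians over the genes tested are descriptions. There Tnfaip3, the feedback inhibitor A20, was at 10.5 TPM against at most 1.12 TPM elsewhere, Tnf at 8.26 against at most 1.21 TPM, and Il1b at 28.8 against at most 8.41 TPM. Rela, the p65 subunit, was without overlap higher in MDA-MB-231 EV (14.0 to 19.3 TPM) than in PBS (9.53 to 11.3 TPM), a change of 0.64 ± 0.40. Ikbkg had a log2 change of 1.00 ± 0.46 (limma adjusted p = 1 for both). Of all genes tested, 5.23% were higher without overlap in this comparison.

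Interferon genes had a median of 0.02 in MDA-MB-231 EV versus PBS, with 8 of 16 above 0, beside 0.21 and 69.72% over all genes. In MCF-10A EV versus PBS their median was 0.20, with 13 of 16 above 0, beside 0.07 and 56.73% over all genes. Isg15 was lower without overlap in MDA-MB-231 EV than in MCF-10A EV (-1.03 ± 0.50) and so was Ifit1 (-0.78 ± 0.48). Irf7 was higher (0.41 ± 0.36, limma adjusted p = 1 for each). Of all genes tested, 1.8% were lower and 4.73% higher without overlap in this comparison.

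Of 12 genes for proteins that present or cut chemokines, 11 were tested and none was called. Sdc1, a heparan sulfate carrier, was at 15.3, 30.7 and 46.7 TPM after PBS and 111, 61.0 and 23.1 TPM after MDA-MB-231 EVs (0.92 ± 0.66). Dpp4, the peptidase that trims Cxcl9, Cxcl10 and Cxcl12, was at 12.3 to 15.1 TPM after PBS and 14.6 to 35.0 TPM after MDA-MB-231 EVs (0.58 ± 0.41; limma adjusted p = 1 for both). Ext2, a heparan sulfate polymerase, was higher without overlap in MDA-MB-231 EV than in PBS (0.77 ± 0.47, adjusted p = 1). Gpc4 of the same list was too (0.425 ± 0.375), beside 5.23% of all genes tested.

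Across the 9 libraries the chemokines varied together in part. Of 45 pairs, 39 had a positive Pearson r on log2(TPM + 1), with a median of 0.557. No such median was computed for pairs of all genes, of which 18.61% were highest in MCF-10A EV 1. The part of library differences shared by many genes in these r values was therefore not tested. By exact permutation tests over the libraries, two-sided, 5 pairs passed an adjusted p of 0.05 for Pearson's r and 0 for Spearman's rho (17 and 9 pairs at an unadjusted p under 0.05). Within the 6 libraries of PBS and of MDA-MB-231 EVs, in which assembled loci are treated alike, 0 pairs passed and 7 had an unadjusted p under 0.05; there the smallest exact permutation p is 0.00139, which adjusts to 0.0625 for a single pair, so this 0 says little. The 2 libraries farthest from the median of the first gene included MCF-10A EV 1 in all 5 of these pairs, and without them 0 of 45 pairs passed, with 7 libraries left for each pair.

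Cxcl9 and Cxcl10 had r = 0.873 (exact permutation p = 5.21e-04, adjusted p = 0.0117) and rho = 0.867 (exact permutation p = 0.00451, adjusted p = 0.0507). Their r was 0.937 within the 6 libraries (exact permutation p = 0.00556, adjusted p = 0.0833) and 0.806 without the 2 farthest. Ccl5 and Ccl6 had r = 0.907 (exact permutation p = 4.88e-04, adjusted p = 0.0117) and rho = 0.867, with r = 0.817 within the 6 libraries and 0.866 without the 2 farthest. Cxcl10 and Ccl5 had r = 0.875 (exact permutation p = 0.00208, adjusted p = 0.0312) and rho = 0.917, with 0.869 within the 6 libraries and 0.625 without the 2 farthest.

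All 5 pairs past the threshold had a lower r without the 2 farthest libraries, including those above. Cxcl13 and Ccl2 had r = 0.929 (exact permutation p = 0.00448, adjusted p = 0.0403) and rho = 0.633. The r of this pair was 0.612 within the 6 libraries and 0.401 without the 2 farthest. Ccl2 passed the filter through MCF-10A EV 1 alone, where both genes were highest, so the p of this pair is a description only. Cxcl10 and Ccl9 had r = 0.779 (exact permutation p = 0.00331, adjusted p = 0.0372), rho = 0.583, 0.761 within the 6 libraries and 0.518 without the 2 farthest. With MCF-10A EV 1 left out, a choice made after its values were seen, 1 pair of 45 passed, Cxcl12 and Ccl9 (r = 0.849, exact permutation p = 7.44e-04, adjusted p = 0.0335; 0.726 with all 9).

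**Figure D4:**
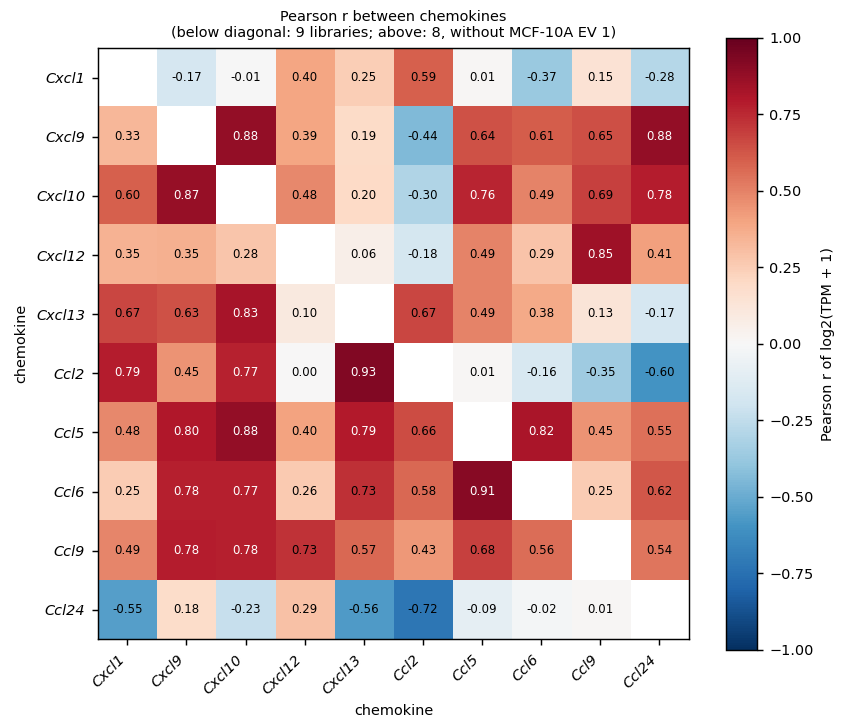
Pearson r between chemokines on log2(TPM + 1), over all 9 libraries below the diagonal and over 8 libraries without MCF-10A EV 1 above it. Cxcl9 and Cxcl10 stay near 0.87 to 0.88 on both sides, whereas Cxcl13 and Ccl2 go from 0.93 to 0.67.

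The genes most like each member in pattern were found by Pearson r over the 9 libraries among all genes tested, without predicted genes, and are a description of values that share libraries and the peak in MCF-10A EV 1. For Cxcl13 they were the macrophage receptor gene Marco (r = 0.995, and 0.984 without MCF-10A EV 1) and Retnlg, a neutrophil gene (0.988). Marco stood at 804 TPM in MCF-10A EV 1, 120 TPM in MDA-MB-231 EV 3 and 80.5 TPM in MDA-MB-231 EV 2, the top libraries of Cxcl13 in the same order. Ccl2 was most like Tlr1 (0.981), which encodes a Toll-like receptor, and the formyl peptide receptor gene Fpr2 (0.98), Cxcl10 like Wfdc17 (0.986) and Slc41a2 (0.975). Cxcl12 was most like Cpox, an enzyme of heme synthesis (0.981), and Cmtm4 (0.974), and Ccl9 like Slc35c1 (0.99) and Ciao2a (0.987). Cxcl1 was most like Zfc3h1 (0.967) and Mark2 (0.957), Cxcl9 like Acyp2 (0.977) and Eef1akmt1 (0.959), Ccl5 like Rars (0.956) and Zfp808 (0.952) and Ccl6 like Agpat4 (0.965) and Htra1 (0.953). Ccl24 had the lowest values, with the peroxisomal thiolase gene Acaa1b (0.896) and the thioesterase gene Acot1 (0.893).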

How the data were processed

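The liver libraries started from 1 µg of RNA and a TruSeq kit (labels' protocols). The authors deposited TPM values per gene and library; HISAT2, StringTie, RSEM and the mouse build GRCm39 are named in the submitters' processing notes, without versions or roles. TPM keeps no read depth, so no counting interval can be given. Features with Ensembl identifiers and a mean of at least 1 TPM (12860) were tested as log2(TPM + 1) in limma 3.58.1 (R 4.3.3), fitting the 3 group means to all 9 libraries, with an intensity trend in the prior variance, two-sided tests and the Benjamini-Hochberg adjustment over all genes of a comparison at 0.05. Fold changes on this scale understate changes of low genes. The fit was checked on data drawn with known changes. Correlations used exact permutation tests (SciPy 1.17.1). From each of 5 gene lists, up to 4 genes with the smallest p in a comparison were eligible to be named; other list genes, markers and single libraries were named after their values were seen. The members and lists were chosen with earlier results of these data known. Promoters come from RefSeq on GRCm38.p6, chromosomes from GENCODE M21 (GRCm38). Alternatives covered the pseudocount, the filter, scaling, weights, the replicate block and each library left out. Some genes of the lists are not reported here.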

Additional observations from a re-analysis of the deposited data

How the results depend on the processing

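No alternative put a chemokine past the threshold: the lowest limma adjusted p over 551 values was 0.115, for Cxcl1 in MCF-10A EV versus PBS with array weights. Of 30 member results (10 genes, 3 comparisons), 15 kept their sign in every alternative. Groups of 3 and the unknown depth limit what could be detected, and Ccl2 could not be fitted without MCF-10A EV 1 because it fell under the filter; the filter at a mean of 5 TPM left 5 members. The cause of the changes below was not tested, unless fewer libraries or genes show it.

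In MDA-MB-231 EV versus PBS, the 0 genes called became 28 without PBS 1 and MDA-MB-231 EV 3 together and 0 to 24 with 1 library left out (24 without PBS 1, 5 without MDA-MB-231 EV 3). The 28 genes called in MDA-MB-231 versus MCF-10A EVs became 11 without a filter, 17 with the stricter filter, 46 with array weights, 17 with only these groups fitted, 15 with the replicate block and 13 to 31 with 1 library left out. The 25 called in MCF-10A EV versus PBS became 40 with a pseudocount of 0.1 TPM, 12 without a filter, 548 with array weights, 66 with only these groups, 85 without PBS 1 and MDA-MB-231 EV 3 and 14 to 59 with 1 library left out; the replicate block gave 20. Same-numbered libraries deviated from their group means with r from -0.389 to 0.5, so the numbers were not taken as pairs and the block changed no member's call. The 5 correlated pairs became 0 within the 6 libraries of PBS and of MDA-MB-231 EVs (where a single pair cannot go below an adjusted p of 0.0625), 0 without the 2 farthest libraries and 1 without MCF-10A EV 1.

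Changes of sign outside leave-one-out fits were as follows. In MDA-MB-231 EV versus PBS, quantile normalization gave -0.017 for Cxcl9 and -0.16 for Ccl6, a pseudocount of 0.1 TPM gave 0.048 for Cxcl10, rescaling without mitochondrial genes gave -0.028 for Ccl6 and array weights gave 0.22 for Ccl24. Without PBS 1 and MDA-MB-231 EV 3 together, Ccl5 was -0.21, Ccl6 -0.04 and Ccl24 0.045. In MDA-MB-231 versus MCF-10A EVs, array weights gave 0.24 for Cxcl13, 0.38 for Ccl5, 0.66 for Ccl6 and 1.09 for Ccl9, and leaving out both libraries gave 0.09 for Ccl6 and 0.85 for Ccl9. In MCF-10A EV versus PBS, array weights gave -0.17 for Ccl5, -0.038 for Ccl6, -0.33 for Ccl9 and 0.17 for Ccl24, and leaving out both libraries gave -0.13 for Ccl5 and -0.13 for Ccl6.

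With 1 library left out, the MDA-MB-231 EV versus PBS changes ranged from -0.22 to 0.59 for Cxcl9, -0.39 to 0.30 for Cxcl10, -0.37 to 0.75 for Ccl5, -0.30 to 0.74 for Ccl6 and -0.59 to 0.24 for Ccl24. Against MCF-10A EV they ranged from -2.05 to 0.90 for Cxcl13, -0.93 to 0.59 for Ccl5, -0.59 to 0.79 for Ccl6, -0.53 to 0.85 for Ccl9 and -0.23 to 0.69 for Ccl24. In MCF-10A EV versus PBS they ranged from -0.27 to 0.095 for Cxcl12, -0.42 to 1.10 for Ccl5 and -0.71 to 0.79 for Ccl6.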
